A study of Mus musculus with 2 samples.

Results

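The genes described here encode the mitochondrial respiratory chain and the ATP synthase, in RNA sequenced from whole mouse kidneys. They are the 112 rows of the count table, of 45777 in all, that are annotated as protein coding and whose symbol starts with Nduf, Uqcr, Sdh, Atp5 or Cox4 to Cox8 (99 nuclear genes) or is 1 of the 13 protein-coding genes of the mitochondrial genome. There was 1 library from the kidneys of control mice and 1 from mice with a conditional knockout (CKO) restricted to the proximal tubule, which the series title names as a knockout of Inmt, a small-amine methyltransferase gene. All mice ate standard chow and were untreated. The labels do not give the strain, age, the Cre line that drives the deletion, how the control mice differ in genotype, or whether RNA of several animals was pooled, and the proximal tubule is only part of a whole kidney.

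Counted reads came to 33618076 for the control and 38136616 for CKO, and 15129 genes reached 1 CPM, the read count divided by library size in Mreads, in at least 1 library after scaling with the trimmed mean of M values (TMM). Inmt, the targeted gene, went from 587 to 124 CPM, a ratio 4.73-fold lower. All 18 proximal tubule markers of the list used here had reads in both libraries. With 1 library per group there was no replicate error and no test. Intervals are exact 95% intervals for counting error only, and they compare these libraries, not the conditions; reads without molecular identifiers are also not independent molecules. In bulk RNA, fewer cells of a type and less RNA per cell cannot be told apart.

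The respiratory chain passes electrons from NADH and succinate to oxygen through complexes I to IV and pumps protons across the inner mitochondrial membrane, and the ATP synthase uses the resulting gradient to make ATP. Complexes I, III and IV and the ATP synthase are built from subunits of both genomes, whereas complex II is wholly nuclear. The mitochondrial genome is read from each strand as a long precursor that is then cut into single RNAs, while the nuclear subunit genes lie on many chromosomes. Proximal tubule cells are among the cells of the kidney richest in mitochondria, because they reabsorb most of the filtered solutes.

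Several of the mitochondrial genes share bases, which bears on how their reads are divided. ATP8 and ATP6 overlap by 43 bases on the same strand, at chrM:7927-7969 (GRCm38), and are carried by a shared messenger RNA. The stretch below runs from 7915 to 7981, from the GENCODE transcripts of that build. Capitals mark the start codon of ATP6, which opens the overlap, and the stop codon of ATP8, which closes it. The next line gives the 14 bases that ND5 shares with ND6, at 13552 to 13565, where the genes lie on opposite strands.
ATP8 and ATP6: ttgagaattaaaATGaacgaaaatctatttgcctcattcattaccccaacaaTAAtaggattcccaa
ND5 and ND6: ttaatctcgagtaa
ND4L and ND4 overlap by 7 bases and ATP6 and COX3 by 1 base. Whether the counting used strand is not given in the sources used here, which bears on ND5 and ND6. The other pairs lie on the same strand, and how their shared reads were assigned is not given either. The split of reads within each of these pairs is therefore uncertain.

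All 13 mitochondrial protein-coding RNAs were lower in the CKO library, under TMM and under each of the other scalings tried. They took 14.2% of all counted reads in the control (exact interval 14.22 to 14.25) and 10.7% in the CKO library (10.64 to 10.66), a comparison of shares that needs no scaling between libraries. Their log2 ratios (CKO over control, computed on CPM + 0.5) lay between -0.82 and -0.61, with a median of -0.72. All 13 were at least 1.5-fold lower under TMM, where 6.85% of all expressed genes were. None (0) was at least 2-fold lower, where 1.66% of all expressed genes were. Those shares cover genes of any abundance, while all of the 13 but ND3 and ND6 exceeded 1000 CPM in both libraries. Low ratios were common among other genes with a mean above 1000 CPM, a range set after the values were seen. Of 66 such genes, 60 had a log2 ratio below 0, 38 fell past the 1.5-fold limit and 12 past the 2-fold limit. Their median was -0.67, beside -0.72 for the mitochondrial genes. The number of mitochondrial genes past 1.5-fold depended on the scaling. It was 0 with total counts, FPKM or TPM. It was 3 with total counts that left out the mitochondrial and the 50 most abundant genes.

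COX1, the catalytic core subunit of cytochrome c oxidase, was the most abundant RNA of the set on the CPM scale. It had 1602220 reads (53213 CPM) in the control, against 1398336 reads (32840 CPM) with CKO, 1.62-fold lower. CYTB, the mitochondrial subunit of complex III, went from 20127 to 11637 CPM, 1.73-fold lower (1.72 to 1.74). ND4, a membrane-arm subunit of complex I, had the lowest ratio, with 11558 CPM in the control, against 6534 with CKO, 1.77-fold lower (1.76 to 1.78). The other large complex I genes lay close by.

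ND1 went from 14955 to 8855 CPM, ND2 from 10488 to 6010 CPM and ND5 from 14245 to 8655 CPM. COX2, which carries the copper site that takes electrons from cytochrome c, went from 9364 to 5543 CPM and COX3 from 9119 to 5451 CPM. ATP6, the proton channel subunit of the ATP synthase, went from 8288 to 5042 CPM, and ND4L from 2615 to 1596 CPM. The smallest differences were those of ATP8, which went from 3933 to 2577 CPM (1.53-fold lower, 1.51 to 1.54), and of ND6, the only member encoded on the other strand, which went from 546 to 351 CPM (1.55-fold lower, 1.52 to 1.59). ND3 was the least abundant, at 497 CPM against 310.

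**Figure D1:**
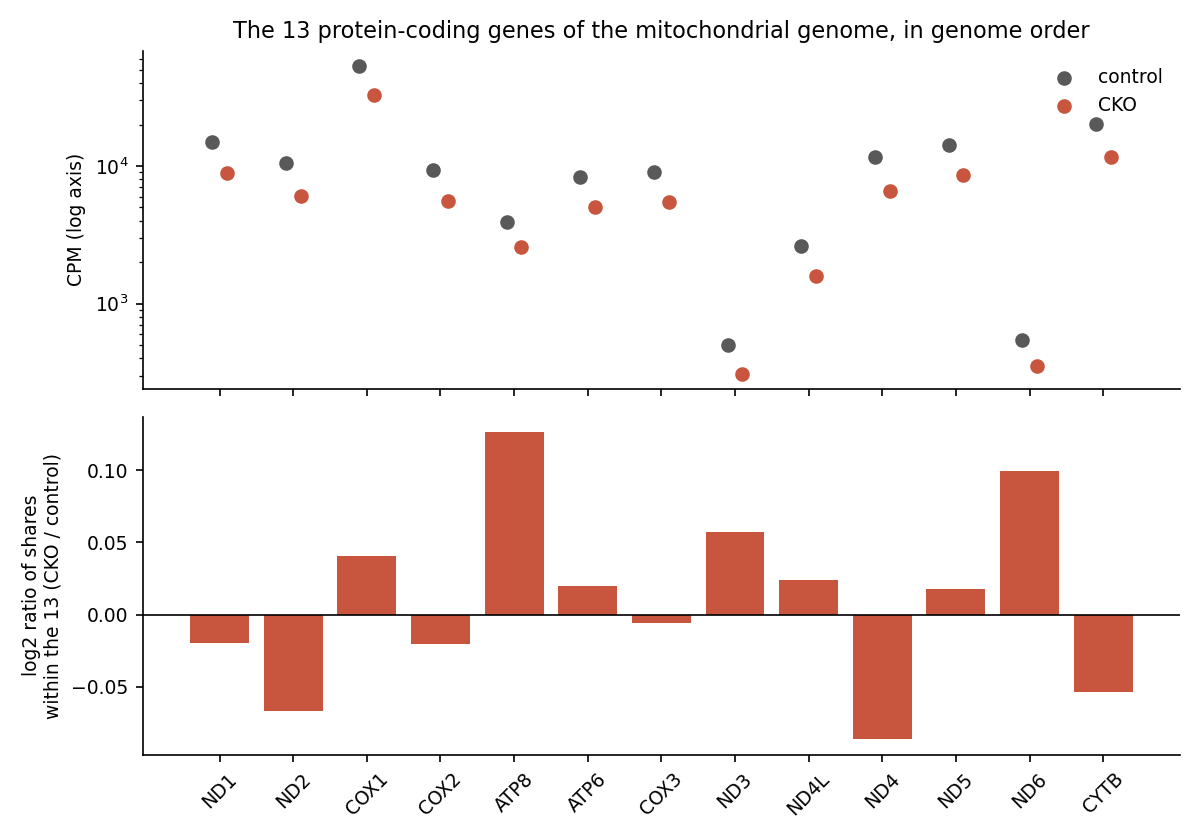
Upper panel: CPM (log axis) of the 13 protein-coding mitochondrial genes in genome order, in the control (grey) and CKO (red) library. Lower panel: log2 ratio (CKO over control) of each gene's share of the reads on all 13. Every gene was lower in the CKO library by a similar step, and the shares within the 13 moved by between -0.09 and 0.13.

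The composition of the mitochondrial reads was nearly the same in both libraries, and its differences were small beside the common step. COX1 took 33.5% of the control reads on the 13 genes and 34.4% of the CKO reads. ATP8 had the largest relative gain, from 2.47% (exact interval 2.46 to 2.49) to 2.701% (2.69 to 2.72), a log2 ratio of shares of 0.13. ND4 had the largest relative loss, from 7.27% (7.25 to 7.29) to 6.85% (6.82 to 6.87), a log2 ratio of shares of -0.09. The intervals of these shares do not overlap between libraries, but they hold no animal-to-animal variation.

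The 4 genes shorter than 600 bases, ATP8, ND3, ND4L and ND6, all took a larger share in the CKO library, as did 3 of the 9 longer ones. This split by length was chosen after the values were seen. Non-coding RNAs of the mitochondrial genome differed among themselves on the TMM scale. The ribosomal RNA mt-Rnr1 went from 15877 to 13612 reads, a log2 ratio of -0.72, and mt-Rnr2 from 24079 to 24203 reads, a log2 ratio of -0.49. Of the 22 transfer RNA rows, 21 had a read, and their summed log2 ratio was -0.59. The interval of the ratio lay below 1 for 8 of them and held 1 for 13, and 4 had a log2 ratio above 0. TrnE went from 4559 to 3542 reads, a log2 ratio of -0.86, while TrnL1 went from 1603 to 2150 reads, a log2 ratio of -0.08 with a ratio interval of 0.889 to 1.01, and both were picked after the values were seen. The library kit is made for messenger RNA, and how completely it captures these non-coding RNAs was not tested.

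The nuclear genes formed a tight group that lay below the median of all expressed genes. Of 99, 94 were expressed, and their median log2 ratio was -0.34 with an interquartile range from -0.41 to -0.25, a width of 0.17. All 15129 expressed genes had a median of 0.01 and an interquartile width of 0.67. Some other gene sets were as narrow. The width was 0.18 for mitochondrial ribosomal protein genes, 0.16 for cytosolic ones and 0.14 for tricarboxylic acid cycle and pyruvate enzyme genes. It was 0.41 for coenzyme Q synthesis genes. The sum of all nuclear members went from 19937 to 15050 CPM, 1.32-fold lower. Of the 94, 90 had a log2 ratio below 0, against 49.3% of all expressed genes, and the other 4 were Cox6b2, Ndufaf5, Ndufa4l2 and Cox7a2l. That share covers genes of any abundance. At 10 to 100 CPM, 34 of 34 members were below 0, against 55.7% of other expressed genes. At 100 to 1000 CPM, 50 of 51 members were, against 79.3% of other expressed genes. With total counts 54 of the 94 were below 0, against 20.6% of all expressed genes. The counting interval of the ratio lay below 1 for 85 members, held 1 for 8 and lay above 1 for 1. Over all expressed genes it lay below 1 for 34.7%, held 1 for 28.5% and lay above 1 for 36.8%.

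Whether the median ratio of the nuclear genes was below 0 depended on the scaling, while its place below the median of all genes did not. Under total counts the nuclear median was -0.02 with 54 of 94 members below 0, where 20.6% of all expressed genes were. Under the authors' TPM it was 0.09 with 21 of 96 below 0, where 15.4% of all expressed genes were. The median of all expressed genes moved by 0.31 and 0.39 with those scalings. The nuclear median minus that of all expressed genes was -0.35 with TMM, -0.34 with total counts and -0.31 with TPM. The mitochondrial median minus that of all expressed genes was -0.73, -0.72 and -0.70 in the same order.

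**Figure D2:**
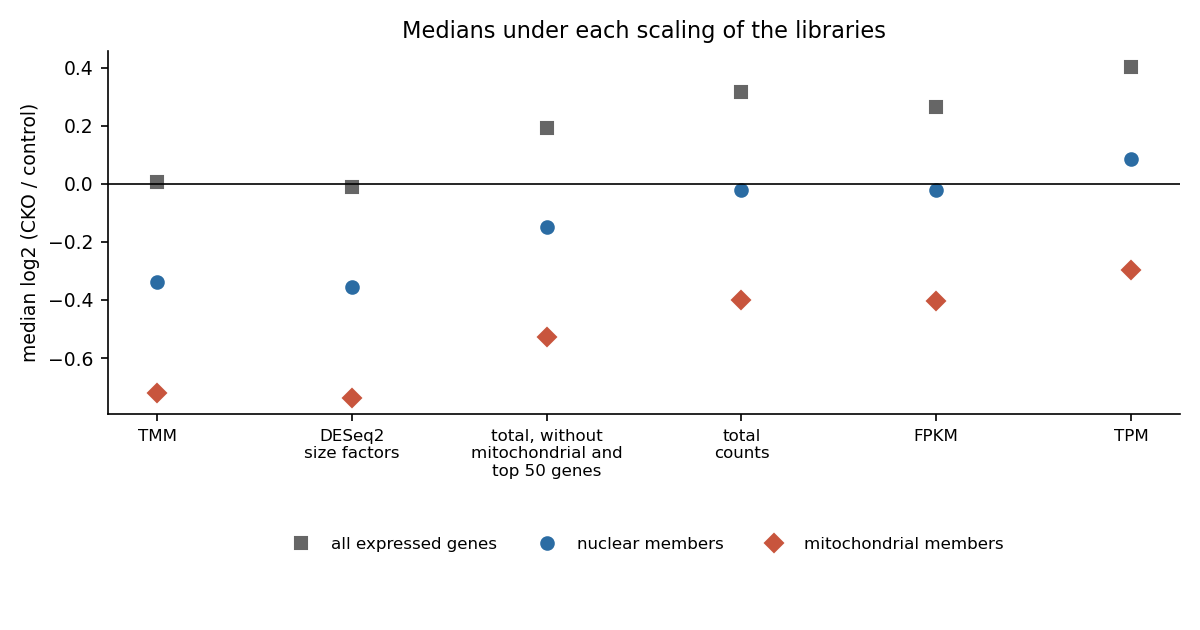
Median log2 ratio (CKO over control) of all expressed genes (squares), nuclear members (circles) and mitochondrial members (diamonds) under 6 scalings of the libraries. The order of the 3 medians was the same under each, but the nuclear median ran from -0.36 with DESeq2 size factors to 0.09 with TPM, where it was above 0, while the mitochondrial median stayed below 0.

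Calls by fold were few among the nuclear genes. None (0) was at least 2-fold lower, where 1.66% of all expressed genes were, and 2 were at least 1.5-fold lower, where 6.85% of all expressed genes were. In the other direction, 1 member was at least 2-fold higher, where 10.3% of all expressed genes were, and the same member was the only 1 at least 1.5-fold higher, where 19.3% of all expressed genes were. The members at least 1.5-fold lower were Ndufv3 and Ndufa4, and neither passed that limit with total counts. The member at least 2-fold higher was Cox6b2. Its mean lay between 1 and 10 CPM, where 960 of 4848 other expressed genes were at least 2-fold higher.

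Abundant genes had lower ratios in general. Among other expressed genes, the median log2 ratio was 0.31 at 1 to 10 CPM (4848 genes), -0.04 at 10 to 100 CPM (7787 genes), -0.29 at 100 to 1000 CPM (1802 genes) and -0.67 above 1000 CPM (66 genes). The nuclear members had medians of -0.08 (7 genes), -0.27 (34 genes), -0.37 (51 genes) and -0.47 (2 genes, Atp5b and Atp5a1) in the same ranges. The members were below the other genes in the first 3 ranges, with the smallest distance at 100 to 1000 CPM, where most members lie, and above them in the highest range. The ranges were set after the values were seen. Across the 94 nuclear genes, the log2 ratio and mean abundance had a Spearman correlation of -0.52 (Pearson -0.55 on log abundance), given as a description across genes of the same 2 libraries, and across other expressed genes it was -0.42.

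**Figure D3:**
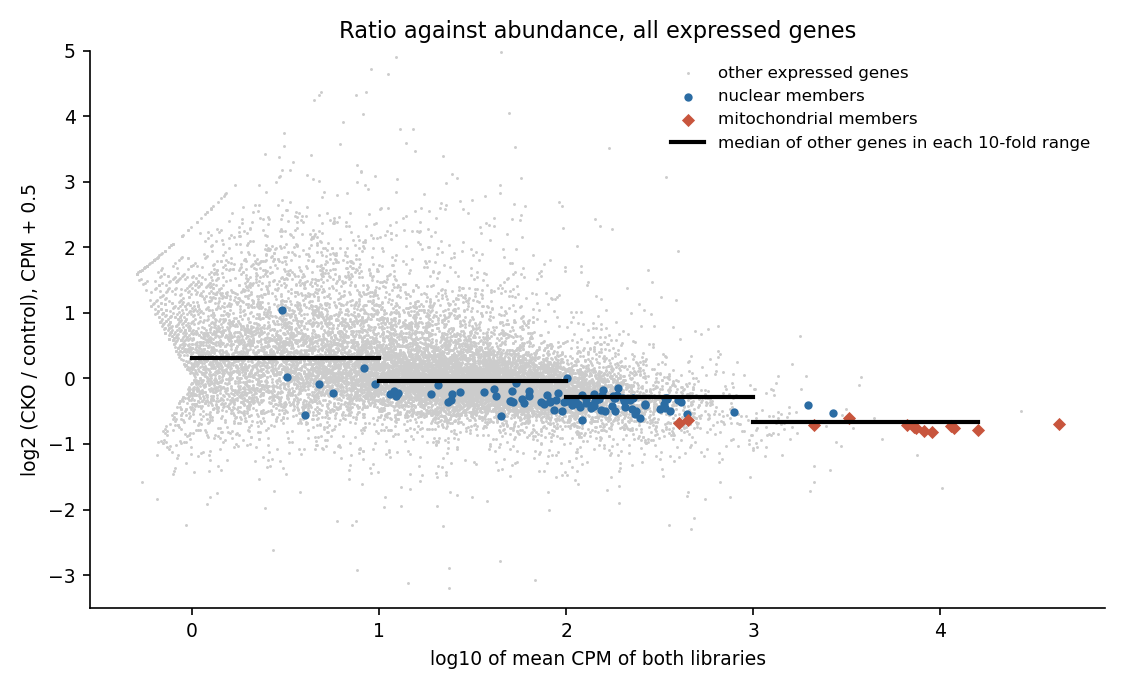
Log2 ratio (CKO over control, CPM + 0.5, TMM) against log10 of the mean CPM of both libraries, for other expressed genes (grey), nuclear members (blue) and mitochondrial members (red), with 4 genes beyond the vertical limits. Black lines mark the median of other genes in each 10-fold range of abundance, from 0.31 to -0.67, and the nuclear members sit in a narrow band; with TPM their median would be above 0.

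Folds and log2 ratios of single genes from here on are on the TMM scale unless another is named. Of the 107 expressed members of both genomes, 36 changed sign with total counts and 70 with TPM, all of them nuclear, so a nuclear gene described as lower is lower relative to the TMM scale.

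Complex I takes electrons from NADH and is the largest complex of the chain. Members were placed by symbol, so Ndufa4 is counted here. The 48 nuclear members had a median log2 ratio of -0.35, from -0.63 to 0.16, and the 7 core subunits, which hold the flavin and the iron-sulfur clusters, a median of -0.39. Ndufs1, an iron-sulfur subunit and the most abundant nuclear complex I gene by mean CPM, had 9009 reads in the control, against 9684 with CKO (299 and 227 CPM), 1.32-fold lower (1.28 to 1.35). Among the core genes, Ndufv1, which binds NADH, was lowest at -0.50 and Ndufv2 highest at -0.31. Complexes were divided further after the values were seen. The 33 accessory subunits had a median of -0.35 and the 8 assembly factors (Ndufaf genes) one of -0.24.

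Ndufv3, an accessory subunit beside the NADH-binding site (GRCm38, chromosome 17, 31520115 to 31531326), had the lowest ratio of any nuclear member. It had 4440 reads (147 CPM, interval 143 to 152) in the control and 4041 reads (94.9 CPM, 92.0 to 97.9) in the CKO library, 1.55-fold lower (1.49 to 1.62). Ndufa4, named for complex I but now assigned to complex IV (chromosome 6, 11900372 to 11907450), had 8986 reads (298 CPM) against 8332 reads (196 CPM), 1.53-fold lower (1.48 to 1.57). Ndufa10, an accessory subunit, went from 279 to 190 CPM, 1.47-fold lower (1.42 to 1.51). These genes had fewer reads in the CKO library although it was the more deeply sequenced library.

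Among the assembly factors, which help to build complex I and are not part of it, Ndufaf4 and Ndufaf5 lay at opposite ends. Ndufaf4 went from 53.4 to 35.8 CPM, a log2 ratio of -0.57, and Ndufaf5 from 7.80 to 8.81 CPM, a log2 ratio of 0.16 whose ratio interval (0.956 to 1.33) held 1. Ndufa3 was also close to the median of all genes, at 55.6 CPM against 52.7. Ndufb4 has named copies, Ndufb4b and Ndufb4c, with log2 ratios of -0.41, -0.23 and -0.24, and the split of reads among these copies is uncertain.

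Complex II, succinate dehydrogenase, links the chain to the tricarboxylic acid cycle and has no mitochondrially encoded part. Sdha, its flavoprotein and most abundant member, had 27903 reads (927 CPM) in the control, against 27700 (651 CPM) with CKO, 1.42-fold lower (1.40 to 1.45). The iron-sulfur subunit gene Sdhb went from 239 to 177 CPM, and the membrane anchor genes Sdhc and Sdhd from 202 to 151 CPM and from 246 to 195 CPM. The 4 subunits had a median log2 ratio of -0.42 and the 4 assembly factors one of -0.23. Among the latter, Sdhaf3 was lowest at -0.56 on 147 against 134 reads and Sdhaf2, which helps attach the flavin to Sdha, highest at -0.21.

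Complex III passes electrons from coenzyme Q to cytochrome c, and its nuclear genes had the lowest median of the complexes. The 8 members lay between -0.50 and -0.30 with a median of -0.45, and their range overlapped with that of every other complex. Uqcrc1, a core protein gene, was both the most abundant and the lowest, with 12728 reads (423 CPM) in the control, against 12720 (299 CPM) with CKO, 1.42-fold lower (1.38 to 1.45). Uqcrfs1, the Rieske iron-sulfur protein gene, went from 260 to 188 CPM, and Uqcrh, the hinge protein gene, had the highest ratio at -0.30. On the TPM scale the complex III median was -0.03, against 0.40 over all expressed genes.

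Complex IV, cytochrome c oxidase, reduces oxygen to water. Of 18 nuclear members 13 were expressed, with a median log2 ratio of -0.29, the highest of the complexes under TMM, total counts and TPM. With Ndufa4 counted here, a placement tried after the values were seen, the median over 14 was -0.30 and the lowest ratio -0.61, and complex I without it had a median of -0.35 over 47. The 10 common subunits with a Cox symbol lay between -0.39 for Cox6a1 and -0.18 for Cox5a. Cox4i1, the most abundant by CPM, had 13392 reads (445 CPM) in the control, against 15005 (352 CPM) with CKO, 1.26-fold lower (1.23 to 1.29). Cox7a2l, a factor that joins complexes III and IV into supercomplexes, was level on the TMM scale, with 3034 against 4294 reads and 101 CPM in both libraries.

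**Figure D4:**
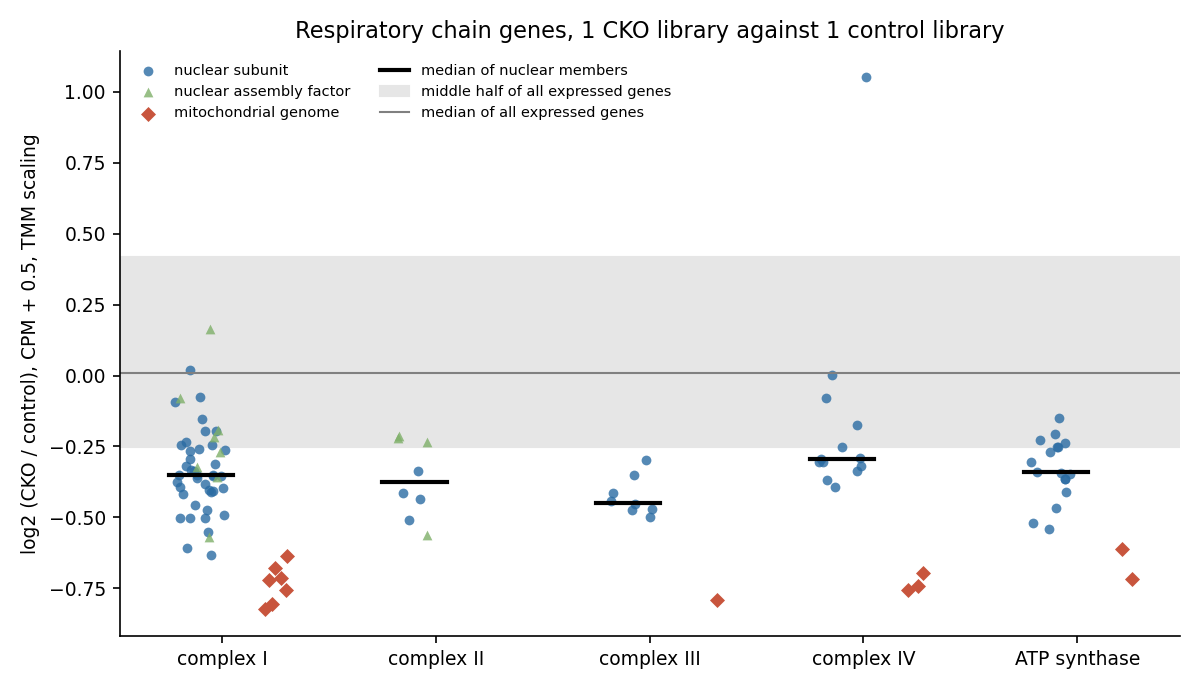
Log2 ratio (CKO over control, CPM + 0.5, TMM) of each expressed member by complex, with nuclear subunits as circles, assembly factors as triangles and mitochondrial genes as diamonds. Black bars mark nuclear medians, and the grey line and band the median and interquartile range of all expressed genes. Mitochondrial genes sit between -0.82 and -0.61, below the nuclear median of each complex, and Cox6b2 is the highest member at 1.05. With TPM most nuclear circles would lie above 0.

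Several complex IV subunits have a common isoform and one restricted to certain tissues, and these were compared by the authors' TPM, which is scaled by length. Cox6b2, best known from testis, went from 5.07 to 17.6 TPM beside Cox6b1 at 721 and 790 TPM, so that its part of the pair went from 0.697% to 2.18%. In reads it had 54 in the control (1.79 CPM, 1.35 to 2.34) and 181 in the CKO library (4.25 CPM, 3.65 to 4.92), 2.37-fold higher (1.74 to 3.27). Its log2 ratio was 1.05, just past 2-fold on the CPM + 0.5 scale, and it fell short of that limit with a pseudocount of 2 CPM. Cox6b2 (chromosome 7, 4751792 to 4753094) overlaps no other expressed gene.

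Cox4i2, an isoform known from lung and from low oxygen, had 3 reads against 15, a ratio of 3.54 with an interval of 1.0002 to 19.1. The striated muscle isoforms were low in both libraries. Cox7a1 had 148 against 197 reads, 22.4 and 28.4 TPM beside Cox7a2 at 260 and 262 TPM, and Cox6a2 had 21 against 22 reads. Cox8b had 0 reads against 3, and Cox7b2 and Cox8c had 0 in both libraries. The floor of 3 reads set for a count of 0 equals 0.0996 CPM in the control and 0.0705 CPM with CKO. The exact interval for 0 reads reaches 0.123 CPM in the control and 0.0866 CPM with CKO. Ndufa4l2, a relative of Ndufa4 known from low oxygen, had 96 against 138 reads, a log2 ratio of 0.02, and its span overlaps that of the abundant gene Shmt2. The 5 members under 1 CPM in both libraries were Cox4i2, Cox6a2, Cox7b2, Cox8b and Cox8c.

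**Figure D5:**
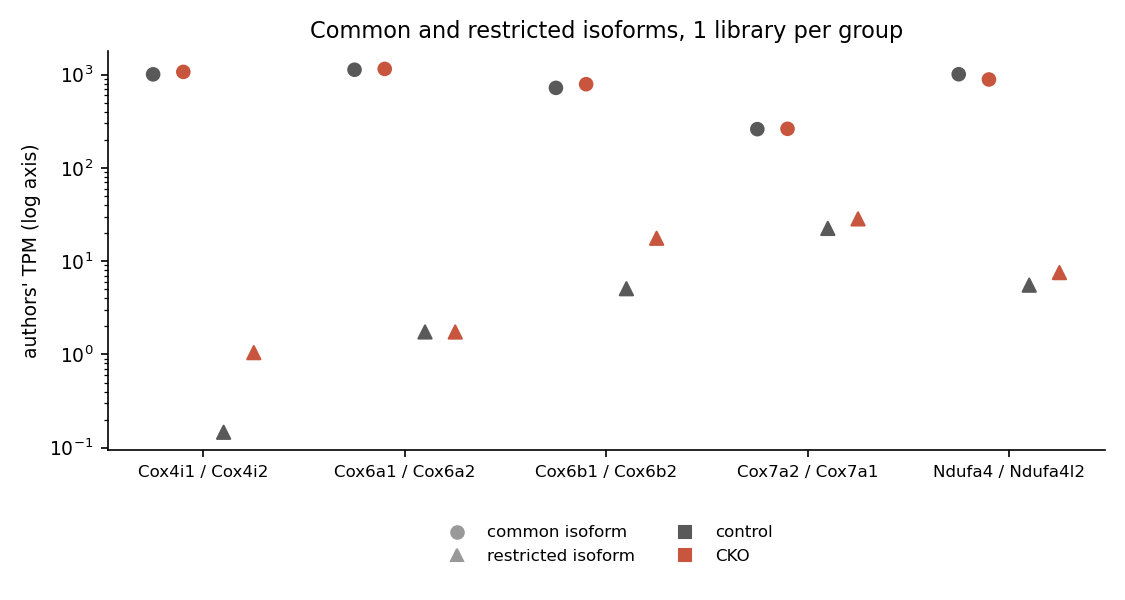
The authors' TPM (log axis) of common isoforms (circles) and restricted isoforms (triangles) in the control (grey) and CKO (red) library, for the 5 pairs with a read for both isoforms in both libraries. Cox6b2 went from 5.07 to 17.6 TPM and Cox4i2 from 0.146 to 1.05 TPM on 3 and 15 reads, while Cox6b1 stood at 721 and 790 TPM.

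The ATP synthase genes had a median log2 ratio of -0.34 over 17 members, from -0.54 to -0.15. Atp5b, the catalytic beta subunit gene and the most abundant nuclear member, had 94361 reads (3134 CPM) in the control, against 92974 (2184 CPM) with CKO, 1.44-fold lower (1.42 to 1.45). Atp5a1, the alpha subunit gene, went from 2250 to 1694 CPM, 1.33-fold lower (1.31 to 1.34). Atp5pb, the peripheral stalk b subunit gene, was lowest, at 528 against 363 CPM, 1.45-fold lower (1.42 to 1.49), and Atp5o, which joins the stalk to the catalytic head, highest, at 198 against 179 CPM. The 5 genes of the catalytic head and central stalk had a median of -0.41 and the other 12 a median of -0.29. The 3 genes of the proton-carrying c ring, Atp5g1, Atp5g2 and Atp5g3, which make the same mature protein, had log2 ratios of -0.34, -0.25 and -0.31.

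Set beside each other on the length-scaled TPM values, most RNAs of the mitochondrial genome were more abundant than those of the nucleus, and the gap between the medians was narrower in the CKO library for each complex with both. The median mitochondrial complex I RNA stood at 14106 TPM against a median of 217 TPM over the 40 nuclear subunits in the control, a ratio of 64.9, and at 10696 against 240 TPM in the CKO library, a ratio of 44.7. The ratio went from 64.5 to 49.8 for complex III, from 43.3 to 31.96 for complex IV and from 56.3 to 44.7 for the ATP synthase. A ratio within a library needs no scaling between libraries. The lowest mitochondrial gene, ND6, was at 1769 TPM in the control, and the highest nuclear gene, Atp5b, at 2805 TPM.

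TPM and read counts differed for a few members. For 76 of 92 members with over 100 control reads, the log2 change in TPM minus that in raw reads was within 0.01 of the common offset of -0.08, but 6 differed from it by more than 0.1. Ndufa13 had 6408 reads in the control, against 6437 with CKO, while its TPM went from 195 to 269. Ndufs7 had 2022 against 2201 reads, and its TPM went from 120 to 149. Atp5d went the other way, with 11102 against 11355 reads and a TPM of 666 against 535, and its span overlaps that of Cbarp. Ndufv3 had a TPM of 223 against 217, a log2 ratio of -0.04 on the scale of TPM + 0.5, against -0.63 on the CPM scale. In all, the spans of 14 of the 94 expressed nuclear members overlap another expressed gene, without regard to strand.

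Promoters of nuclear respiratory genes are known as targets of the transcription factors NRF1 and GABPA, an ETS-family factor. Of the 99 nuclear members, 81 had a promoter in the RefSeq table (GRCm38.p6, 250 bases before to 50 after a start), and a match was sought on both strands for the NRF1 motif, spelled GCGCA, any base, GCGC, and the ETS motif CCGGAAG. Neither motif is contained in the other. An NRF1 match was found for 21 members (25.9%), against 10.7% of 10769 expressed protein-coding genes outside the set and 5.19% of all 27025 genes in the table. An ETS match was found for 22 (27.2%), against 18.8% and 9.93%. Each match is a description of letters and not a binding site.

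The stretches below show 120 bases up to the base before the start, 5′ to 3′ on the strand of the gene, with motif matches in capitals. They were chosen after the values were seen, and Atp5j falls outside the rule for named genes. Sdha holds 3 NRF1 matches (chr13:74350241-74350360, minus strand), Ndufaf4 holds 1 (chr4:24897963-24898082, plus strand), and Cox6a1 holds 1 of each motif (chr5:115348959-115349078, minus strand). Atp5j holds an ETS match (chr16:84834977-84835096, minus strand) and its span overlaps that of Gabpa, the gene for the ETS-family factor itself. The Atp5j stretch precedes an internal start, since it lies within the span of that gene (84827871 to 84835857).
Sdha: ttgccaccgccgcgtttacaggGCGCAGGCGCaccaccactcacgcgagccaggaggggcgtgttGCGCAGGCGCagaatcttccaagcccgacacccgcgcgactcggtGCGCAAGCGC
Ndufaf4: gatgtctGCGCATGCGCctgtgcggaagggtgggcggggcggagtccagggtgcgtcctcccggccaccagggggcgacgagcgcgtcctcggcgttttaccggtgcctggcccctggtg
Cox6a1: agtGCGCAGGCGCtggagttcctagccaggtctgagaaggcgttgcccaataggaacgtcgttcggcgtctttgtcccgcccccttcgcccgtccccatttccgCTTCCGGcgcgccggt
Atp5j: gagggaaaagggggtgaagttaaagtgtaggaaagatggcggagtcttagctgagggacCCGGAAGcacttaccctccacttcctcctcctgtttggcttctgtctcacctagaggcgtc
Members with and without a match had like ratios. The median log2 ratio was -0.36 over 21 expressed members with an NRF1 match and -0.32 over 58 without, and -0.33 over 22 with an ETS match and -0.34 over 57 without. Nrf1 itself had 638 reads in the control, against 887 with CKO, a log2 ratio of -0.02, and Gabpa went from 75.6 to 64.7 CPM, a log2 ratio of -0.22, next to -0.24 for Atp5j.

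Other genes of mitochondrial respiration were also mostly below 0 on the TMM scale, where 49.3% of all expressed genes were. That share covers genes of any abundance. Among genes that are not members it was 55.7% at 10 to 100 CPM, 79.3% at 100 to 1000 CPM and 90.9% above 1000 CPM. Of 36 expressed genes for cytochrome c and for assembly of the complexes, 34 were below 0, with a median of -0.31, and 3 were at least 1.5-fold lower, a share near the 6.85% of all expressed genes. Cycs, the cytochrome c gene, was 1.57-fold lower at 545 against 346 CPM, Acad9, a complex I assembly factor gene, was lowest at -0.69, and Uqcc2, a complex III assembly factor gene, highest at 0.34. The list of 17 tricarboxylic acid cycle genes also holds the pyruvate enzyme genes Pdha1, Pdhb, Dlat and Pcx. All 17 were below 0, and 2 were at least 1.5-fold lower, against 6.85% of all expressed genes. Their median was -0.49, with Suclg2 lowest at -0.67 and Idh3a highest at -0.22. With TPM this median was -0.06. Coenzyme Q synthesis genes had a median of -0.33 over 13, with 10 below 0, Pdss1 lowest at -0.59, Coq10b highest at 0.23 and Coq9 most abundant at -0.49.

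Genes that copy and transcribe the mitochondrial genome lay closer to the median of all genes. Of 23 expressed, 21 were below 0, against 49.3% of all expressed genes, and 1 was at least 1.5-fold lower, against 6.85%. Their median was -0.23. Trmt10c, a part of the enzyme that cuts the precursor at transfer RNAs, was lowest at -0.91, on 924 against 687 reads. Mterf2 was highest at 0.31, and Hsd17b10, which belongs to the same enzyme, was most abundant at -0.37. Tfam, the factor that packages and activates the mitochondrial genome, went from 39.95 to 33.0 CPM and Polrmt, the mitochondrial RNA polymerase gene, from 49.2 to 42.2 CPM. The 16 regulators of mitochondrial biogenesis had a median of -0.13. Ppargc1a, a coactivator of respiratory genes, had 2798 against 3915 reads, a log2 ratio of -0.02, Ppargc1b was lowest at -0.50, Myc highest at 1.42 and Ppara most abundant at -0.31.

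Import and membrane genes had a median of -0.32 over 22, with Hspd1, the mitochondrial chaperonin gene, both most abundant and lowest at -0.92 (1025 against 542 CPM), and Dnm1l highest at 0.07. Mitophagy and stress genes had a median of -0.27 over 13 expressed, from Pink1 at -0.52 to the uncoupling protein gene Ucp2 at 0.84, 1.80-fold higher, with Sqstm1 most abundant at -0.38. The 78 mitochondrial ribosomal protein genes had a median of -0.30, with 72 below 0, Mrpl44 lowest at -0.78, Mrps6 highest at 0.64 and Mrpl12 most abundant at -0.59. The 81 expressed cytosolic ribosomal protein genes, which are also short and abundant, had a median of 0.12, with Rpl3l lowest at -1.12, Rpl37rt highest at 0.55 and Rpsa most abundant at 0.01. Of these 81, 12 were below 0, against 90 of 94 for the nuclear respiratory genes and 49.3% of all expressed genes.

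Markers of cell types moved in the same libraries. Of 18 proximal tubule markers, 17 were below 0, against 49.3% of all expressed genes. Among genes that are not members, 79.3% were below 0 at 100 to 1000 CPM and 90.9% above 1000 CPM. At least 2-fold lower were 5 of the 18 markers, against 1.66% of all expressed genes. Their median was -0.57 (-0.25 with total counts, -0.14 with TPM), and none (0) was without reads. They summed to 55169 CPM in the control and 27544 CPM with CKO. Kap, the most abundant and the lowest of them at -1.68, went from 15529 to 4858 CPM. Acsm2 went from 10414 to 4654 CPM, and Kap and Acsm2 made up much of the difference between the sums. Slc5a12 was the only marker of this list above 0, at 747 against 892 CPM. The 11 markers of the thick ascending limb and distal tubule, also rich in mitochondria, had a median of 0.04 and summed to 9243 and 9581 CPM, and the 10 collecting duct markers had a median of 0.33 and summed to 400 and 542 CPM. The 14 macrophage markers had a median of 2.39 and summed to 86.1 and 410 CPM. The 14 tubular injury genes had a median of 3.46 and summed to 619 and 5689 CPM, of which Spp1 made up 342 and 4196 CPM. No gene of these 2 lists was without reads in either library. Of 11 striated muscle genes, 3 were expressed, with a median of -0.08 and sums of 4.52 and 4.44 CPM, and 6 had 0 control reads and 4 had 0 CKO reads. The part of these cell types in the ratios of the respiratory genes was not tested.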

How the data were processed

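The deposited count table gives whole-number read counts per gene that the authors did not normalize, beside their FPKM and TPM values, per the file headers. A second deposited table of normalized signal equalled the counts divided by 1 constant per library, for 19550 genes, and was used only for that check. Per the submitters' processing notes the build was mm10 and the tools were FastQC, edgeR, DESeq2, HTSeq, Cufflinks 2.2.1 and STAR 2.7.3a; their roles are not given in the sources used here. The labels name a stranded mRNA kit.

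Counts were scaled by TMM (edgeR 4.0.16, R 4.3.3) over genes with a read, with effective sizes of 30.1 and 42.6 Mreads for 33618076 control and 38136616 CKO reads. A gene counted as expressed from 1 CPM in at least 1 library, and log2 ratios used CPM + 0.5, which understates ratios of low genes. Intervals are exact Poisson for CPM and exact Clopper-Pearson for shares and for ratios, at 95%, and the floor for a count of 0 is 3 reads per library. A log2 ratio is not a test, and no p-value was computed.

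Named genes are the 13 mitochondrial genes, the most abundant, lowest and highest of each complex, the 8 nuclear members on each side whose interval is farthest from 1 (only Cox6b2 and Cox4i2 were on the higher side), the restricted isoforms and their partners, and the lowest, highest and most abundant gene of each pathway list; marker lists are given by counts and sums. Of the genes under this rule, 1 is not reported here. Other genes named in the text, such as Ndufa3, Cox7a2l, Ndufa13, Tfam, Polrmt and Ppargc1a, fall outside the rule and were chosen after their values were seen. The members, the 16 gene lists and this rule were chosen with earlier results of these data known, and subgroups of complexes, abundance ranges and the printed promoters were chosen after the values were seen. Gene positions come from RefSeq for GRCm38, the assembly that mm10 names, and all 112 members matched by NCBI gene ID. Of the nuclear members, 81 of 99 had a promoter in the RefSeq table. The code was tested on simulated data. Python 3.11.15, numpy 2.4.6, pandas 2.3.3, scipy 1.17.1 and DESeq2 1.42.0 (size factors only) were used.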

Additional observations from a re-analysis of the deposited data

How the results depend on the processing

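The nuclear median of -0.34 was -0.36 with DESeq2 size factors, -0.15 with total counts without the mitochondrial and the 50 most abundant genes, -0.022 with total counts, -0.0196 with FPKM and 0.087 with TPM, the 1 setting that turned its direction. It was -0.35 with a minimum of 10 CPM, -0.32 as a mean and -0.35 without assembly factors. The mitochondrial median of -0.72 was -0.74, -0.53, -0.40, -0.40 and -0.30 under the same 5 scalings, -0.72 with the CKO library thinned to the control total and -0.73 as a mean. The nuclear median minus that of all expressed genes, -0.35 in the main setting, was -0.34 with total counts, -0.31 with TPM, -0.28 with FPKM, -0.40 without an expression minimum, -0.27 with a minimum of 10 CPM, -0.46 as a difference of means and -0.36 without assembly factors. The count at least 1.5-fold lower, 2 in the main setting, was 0 with total counts, with total counts without the most abundant genes, with FPKM and with TPM. The count at least 2-fold higher, 1 in the main setting, was 2 with TPM and 0 with a pseudocount of 2 CPM or a minimum of 10 CPM. The mitochondrial share of reads was 14.5% and 10.9% (control and CKO) of protein-coding reads, and 16.8% and 12.1% without the 50 most abundant nuclear genes. Pseudocounts of 0.1 and 2 CPM moved no median by more than the counting error of the summed reads of its members. Among the 107 expressed members, single log2 ratios changed sign for 36 with total counts, 38 with FPKM, 70 with TPM, 7 with total counts without the most abundant genes and 1 with DESeq2 size factors, and none (0) of these was mitochondrial. Of the 99 members whose counting interval left out 1, the sign changed for 31, 33, 65, 3 and 0 in the same order, 132 in all. Of the 16 members past 1.5-fold, none (0) changed sign. The median of all expressed genes moved by at most 0.39 between scalings, less than the log2 of 1.5. That 0 was therefore largely set by the limit and says little about how firm these ratios are. Past 1.5-fold is the definition of a called value used for single genes here, and it replaced the interval definition after these sign changes had been seen. No paired analysis was possible because each group has 1 library, so nothing here measures the spread between animals. Depth limits only members with few reads, such as Cox4i2, Cox6a2 and Cox8b.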
